A study of Mus musculus with 6 samples.

Results

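The genes of the IL-12, IL-10 and IL-15 cytokine axes were examined in microglia that had been co-cultured with neutrophils of either *Cd177* genotype. The 10 genes were taken by name from the 55335 gene identifiers of the series: *Il12a*, *Il12b*, *Il23a*, *Il27*, *Ebi3*, *Il10*, *Il10ra*, *Il10rb*, *Il15* and *Il15ra*. They are ligand and receptor genes listed by family, with no threshold on a measured value. Primary microglia were prepared from the whole brain of newborn C57BL/6 mice, shaken off on day 14 of culture, and labelled WT in all libraries. Neutrophils were isolated with magnetic beads from the lesion of the contused spinal cord at 3 dpi (days post-injury), from adult male mice that carried *Cd177* (WT) or lacked it (KO, Cd177-/-). Both cell types were kept in direct contact for 24 h, and microglia were then sorted by flow cytometry as Ly6G-. The comparison asks whether loss of *Cd177* in the neutrophils alters the transcripts of the microglia, with 3 libraries after co-culture with WT neutrophils and 3 after co-culture with KO neutrophils.

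The IL-12 family is built from shared chains. *Il12b* encodes the chain that pairs with the product of *Il12a* in IL-12 and with the product of *Il23a* in IL-23, while *Ebi3* encodes the chain that pairs with the product of *Il27* in IL-27. IL-12 and IL-23 made by myeloid cells direct T and NK cells, whereas IL-27 can both activate and restrain T cells. IL-10 restrains inflammatory genes in macrophages and microglia through a receptor made of the *Il10ra* and *Il10rb* products and through STAT3. IL-15 supports NK and memory T cells, and its high-affinity receptor chain, encoded by *Il15ra*, holds it on the surface of the producing cell and presents it to neighbours that carry the *Il2rb* and *Il2rg* products.

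To show the sequence in front of the genes of the IL-12 family that separated the groups and had an entry in the promoter table, the windows of *Il12b* and *Ebi3* are printed from RefSeq (build GRCm38.p6), each as the 250 bases before the annotated start, 5′ to 3′. Capitals mark the kappaB consensus, which NF-kappaB dimers can bind, and the letters GAGGAA on either strand, a core that ETS family factors can bind. The *Il12b* window lies at chr11:44399813-44400062 on the plus strand and the *Ebi3* window at chr17:55952373-55952622 on the plus strand.
Il12b: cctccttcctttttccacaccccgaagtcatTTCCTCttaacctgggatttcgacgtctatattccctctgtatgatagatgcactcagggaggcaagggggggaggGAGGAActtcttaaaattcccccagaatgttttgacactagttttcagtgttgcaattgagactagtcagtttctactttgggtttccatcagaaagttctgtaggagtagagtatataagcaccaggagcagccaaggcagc
Ebi3: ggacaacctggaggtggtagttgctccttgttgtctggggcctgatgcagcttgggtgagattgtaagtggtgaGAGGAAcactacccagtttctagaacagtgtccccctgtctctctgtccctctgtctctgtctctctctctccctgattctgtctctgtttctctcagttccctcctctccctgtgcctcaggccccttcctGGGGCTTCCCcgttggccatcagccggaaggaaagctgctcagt
The *Ebi3* window held a kappaB match 44 bases before the start and a GAGGAA match 176 bases before it. The *Il12b* window held no kappaB match, and held GAGGAA matches at 143 bases before the start and, on the minus strand, at 219 bases. None of these matches overlapped another. Over 32841 windows of the same length in the table, 3.90% held the kappaB consensus and 23.3% held GAGGAA, so the second is a common string. The interferon-response string GAAANNGAA (7.13% of windows), the STAT string TTCNNNGAA (7.02%) and the AP-1 string TGANTCA (6.75%) were in neither of the printed windows. Of the 10 genes, 4 had an entry in the table. The windows of *Il12a* held none of the searched motifs, and the windows of *Il15ra* held GAAANNGAA and GAGGAA in the first and TGANTCA in the second. A match is a description of letters and not of a bound site, and the lack of a match does not show that a site is absent.

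The values are FPKM, fragment numbers scaled to the length of the transcript and to the mapped fragments of the library, so levels of different genes can be compared within a library. A library listed 19653 to 20449 genes above 0, and its implied depth was 15.6 to 19.2 in units of 1e+06 fragments. Pearson's r of log2(FPKM + 1) across genes was 0.988 to 0.989 within the groups and 0.956 to 0.959 between them. Among the 11395 genes averaging 1 FPKM or more, 4930 were called at an adjusted p under 0.05 with limma (43.3%), 2141 lower (18.8%) and 2789 higher (24.5%) with KO neutrophils. On the TPM scale, where each library has the same sum, 2660 were lower and 2175 higher, and the median change of all genes was -0.02 on the log2 scale in place of 0.02. *Cd177*, the gene deleted in the KO neutrophils, was listed at 0.477, 0.113 and 0.151 FPKM in WT co-cultures and at 0.109, 0.0217 and 0.0845 FPKM in KO co-cultures. The level of 3 fragments is at most 0.0710 FPKM, and the highest library, WT replicate 1, had about 21.9 fragments. The sorted microglia were labelled WT, and which cells gave these fragments was not tested, so the values do not check the genotype of the neutrophils. Of 20 microglia markers, 9 were tested, 2 were lower and 6 higher with KO neutrophils, and the summed level was 782 to 820 FPKM in WT and 921 to 959 FPKM in KO co-cultures. Among the most abundant, *Cd68* went from 372 to 491 FPKM (adjusted p = 5.92e-05), *Tyrobp* from 136.7 to 191 FPKM (adjusted p = 0.000724) and *Adgre1* from 101.3 to 39.3 FPKM (adjusted p = 1.74e-06). Among the low markers, *Sall1*, *Fcrls* and *C1qa* were listed at 0 in every library, *P2ry12* stayed at or under 0.148 FPKM and *Tmem119* at or under 0.793 FPKM. The markers that were called differed between the same libraries as the cytokine genes, and their part in the results was not tested. *Xist* was at 105.9 to 126.2 FPKM in every library, and 4 Y-linked genes were listed at 0, although the methods describe the animals as male. Whether the libraries of a group came from separate cultures is not stated, so the p-values measure the spread between these libraries, which may be technical.

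Among the 5 chains of the IL-12 family, *Ebi3* fell 3.95-fold and *Il23a* fell 2.75-fold with KO neutrophils. *Il12b* was listed above 0 only with WT neutrophils and was too low for the test, while *Il12a* was at 0 throughout and *Il27* showed no detectable difference. In the IL-15 pair, ligand and receptor moved in opposite directions, *Il15* upwards and *Il15ra* downwards. The receptor chain *Il10rb* fell by a small amount, while *Il10ra* did not pass the test and *Il10* itself was at or near 0. Of the 10 genes, 6 averaged 1 FPKM or more and were tested. Of these, 5 were called (43.3% of all genes tested were called), 4 lower (18.8% of all) and 1 higher (24.5% of all). The groups did not overlap for 5 of the 6 tested genes, against 55.8% of all genes tested, and for 6 of the 10 genes when *Il12b* is counted. By the threshold stated in the study's methods (more than 2-fold and unadjusted p under 0.05), *Ebi3* alone passed in this fit, against 2.57% of all genes. The median change of the tested genes was -0.26 on the log2 scale, against 0.02 for all genes tested. *Il23a* and *Il15ra* had means under 1 FPKM with KO neutrophils and entered the test through their level with WT neutrophils, so this count and median are descriptions and carry no support of their own.

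**Figure D1:**
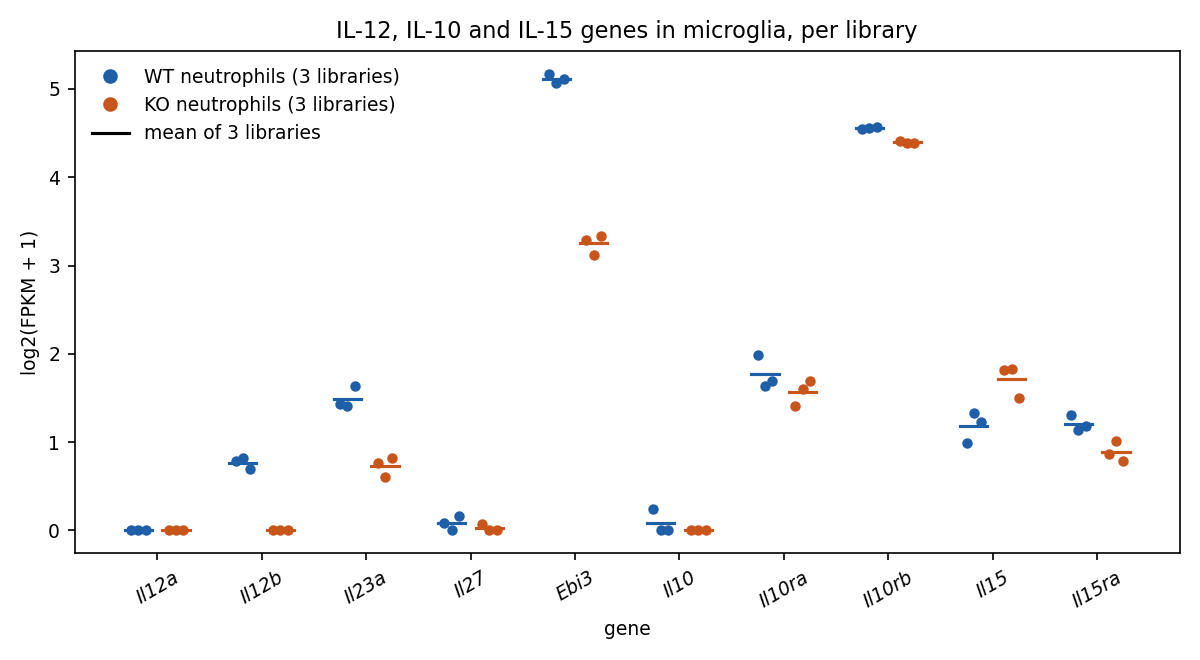
The level of each of the 10 genes as log2(FPKM + 1) (vertical axis) in every library, with points for single libraries, blue for WT and orange for KO neutrophils, and a line at the mean of 3 libraries. *Ebi3* stands at 32.5 to 35.1 FPKM in WT co-cultures and 7.69 to 9.09 FPKM in KO co-cultures, *Il12b* is at 0 in all KO libraries, and only *Il15* has all KO points above the WT points.

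*Ebi3* (ENSMUSG00000003206; chromosome 17, 55952640 to 55957022, plus strand, GRCm38 with GENCODE M21) has a single annotated transcript of 1154 bases. Its level was 35.1, 32.5 and 33.5 FPKM in the WT libraries and 8.81, 7.69 and 9.09 FPKM in the KO libraries. Every WT library was well above every KO library, and the spread within each group was small. The means were 33.7 ± 1.31 FPKM (SD, n = 3) and 8.53 ± 0.742 FPKM (SD, n = 3), a ratio of 3.95. The log2 change was -1.87 (SE 0.064, 95% interval -2.02 to -1.71), with an adjusted p of 4.68e-06 in limma. The absolute change lay at the 99.4 percentile of all genes tested. The exact two-sided permutation test gave p = 0.1, the smallest that 3 against 3 libraries allow, so it cannot pass 0.05. The *Ebi3* promoter is the printed window that holds a kappaB match. An antisense gene, *Gm16712*, overlaps its exons on the opposite strand and was at 2.67, 2.92 and 3.10 FPKM in WT co-cultures and 0.648, 0.992 and 0.531 FPKM in KO co-cultures. *Gm16712* fell by 1.19 on the log2 scale (adjusted p = 0.000345). Its KO values were under 1 FPKM, so it entered the test through its level with WT neutrophils. Because use of strand in the counting is not stated, reads of *Ebi3* and *Gm16712* cannot be told apart here.

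*Il27* (ENSMUSG00000044701; chromosome 7, 126589010 to 126594941, minus strand), the partner of *Ebi3* in IL-27, was near the limit of detection. It was listed at 0.0579, 0 and 0.123 FPKM in WT co-cultures and 0.0552, 0 and 0 FPKM in KO co-cultures. All of these values lay under the level of 3 fragments (at most 0.189 FPKM for its 1021-base transcript), so no difference was detectable at this depth (exact permutation test, p = 0.4). *Apobr*, which overlaps *Il27* on the opposite strand, was at 14.2 to 16.1 FPKM in WT co-cultures and 16.3 to 17.96 FPKM in KO co-cultures, so the few fragments at *Il27* also cannot be assigned by strand. *Ebi3* was therefore the abundant chain of this pair in both groups.

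*Il23a* (ENSMUSG00000025383; chromosome 10, 128296139 to 128298752, minus strand) encodes the chain specific to IL-23. Its level was 1.71, 1.65 and 2.11 FPKM in WT co-cultures and 0.692, 0.522 and 0.769 FPKM in KO co-cultures. The groups were separated, with all KO libraries under 1 FPKM. The means were 1.82 ± 0.254 FPKM (SD, n = 3) and 0.661 ± 0.126 FPKM (SD, n = 3), a ratio of 2.75. On the log2 scale *Il23a* fell by 0.76 (SE 0.098, adjusted p = 0.00131), which understates the ratio because 1 was added to a low FPKM. With 0.1 added in its place the change was -1.34, and the study's threshold was then passed.

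*Il12b* (ENSMUSG00000004296; chromosome 11, 44400063 to 44414033, plus strand) encodes the chain shared by IL-12 and IL-23. It was listed at 0.726, 0.761 and 0.614 FPKM with WT neutrophils, which corresponds to about 22.9, 22.1 and 18.2 fragments if the shorter coding transcript was counted. It was listed at 0 in all 3 libraries with KO neutrophils, where 3 fragments would give at most 0.101 FPKM. The WT values were thus well above that level and close to each other, and the groups did not overlap. The difference of means was -0.701 FPKM, with the smallest exact permutation p that the design allows, 0.1. *Il12b* was under the limit of 1 FPKM for the test, and no fold is given against a group at 0. When every gene with a value above 0 was tested, 25195 in all, its adjusted p was 0.000211. An exact 0 in such a table can be a failed estimate. Of 15 ubiquitous genes, 0 were at 0 in any library, but all were more abundant than *Il12b*, so they cannot decide this.

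*Il12a* (ENSMUSG00000027776; chromosome 3, 68690644 to 68698547, plus strand), the chain specific to IL-12, was listed at 0 in all 6 libraries. At this depth 3 fragments correspond to 0.152 FPKM at most. The ratio of *Il12b* to *Il12a*, and those of *Il12b* to *Il23a* and of *Ebi3* to *Il27*, were not computed, since at least 1 gene of each pair was under the level of 3 fragments in a library.

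By the likeness of pattern, measured as the Euclidean distance over the 6 libraries of log2(FPKM + 1) relative to the WT mean, the genes nearest to *Ebi3* were *Grap*, *Stap1* and *St3gal6*. *Grap*, a signalling adaptor, had a distance of 0.137 and went from 27.9 ± 0.627 to 6.99 ± 0.280 FPKM (SD, n = 3). *Stap1*, another adaptor, had a distance of 0.161 and went from 65.6 to 17.7 FPKM. *St3gal6*, a sialyltransferase, had a distance of 0.2105 and went from 9.44 to 1.78 FPKM. These genes were picked for their likeness, so their fall is no separate result.

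**Figure D2:**
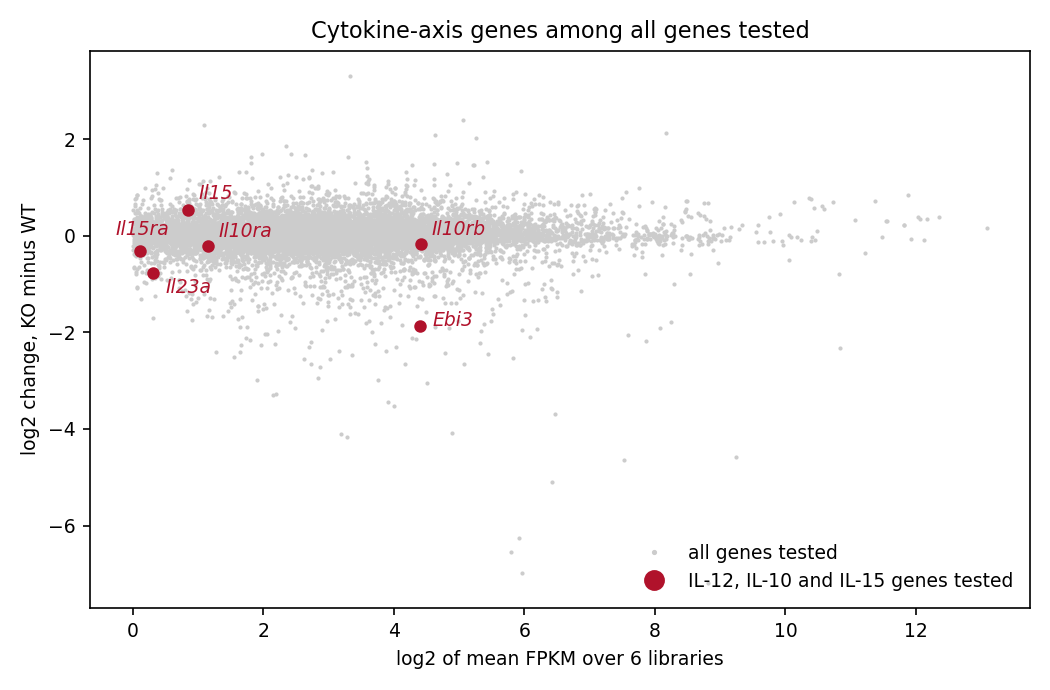
The log2 change with KO relative to WT neutrophils (vertical axis, log2(FPKM + 1) scale) against log2 of the mean FPKM over 6 libraries (horizontal axis), with grey points for the 11395 genes tested and red points for the 6 tested cytokine and receptor genes. *Ebi3* at -1.87 lies below the main cloud of genes of similar level, while *Il10rb* at -0.16 and *Il10ra* at -0.21 lie inside it.

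Neutrophils and dendritic cells can also supply IL-12 family transcripts, so their markers were read in the same libraries. The summed level of 16 neutrophil markers was 118.3 to 122.3 FPKM in WT co-cultures and 1.80 to 2.64 FPKM in KO co-cultures. Nearly all of this sum came from *Lcn2* and *Mmp9*, the markers that passed the filter, both lower with KO neutrophils. They averaged 0.200 and 0.987 FPKM with KO neutrophils, under the limit of 1 FPKM. Both entered the test through their level with WT neutrophils, so their shared direction carries no support of its own. The other 14 markers summed to 2.03 to 2.30 FPKM in WT co-cultures and 0.791 to 1.27 FPKM in KO co-cultures, and the defining markers *Ly6g*, *S100a9*, *Mpo*, *Elane*, *Ltf*, *Retnlg* and *Ly6c2* were listed at 0 in every library. Of 10 dendritic markers, *Bst2* was lower and *Itgax* higher with KO neutrophils, *Ccr7* and *Cd209a* were listed at 0, and the 8 markers other than *Bst2* and *Itgax* summed to 0.695 to 0.781 FPKM in WT co-cultures and 0.721 to 0.885 FPKM in KO co-cultures. The part of other cells in the levels of *Ebi3*, *Il23a* and *Il12b* was not tested. In these bulk libraries, fewer cells of a type and less RNA per cell cannot be told apart.

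The receptors and signal carriers of the IL-12 family moved in both directions. Of 11 genes listed, 8 were tested, with 4 lower (18.8% of all genes tested were) and 2 higher (24.5% of all), and their median log2 change was -0.09 against 0.02 for all. *Il12rb2*, the signalling chain of the IL-12 receptor, was at 1.30, 1.56 and 1.57 FPKM in WT co-cultures and 2.91, 2.50 and 2.46 FPKM in KO co-cultures. It rose by 0.55 on the log2 scale (SE 0.080, adjusted p = 0.00226), with no overlap between the groups. *Il12rb1*, the chain used by both the IL-12 and the IL-23 receptor, was at 1.51 ± 0.166 and 1.42 ± 0.0698 FPKM (SD, n = 3) and did not pass the test (log2 change -0.05, 95% interval -0.23 to 0.13). *Il23r* was listed at 0 in all libraries, and *Il27ra*, the specific chain of the IL-27 receptor, reached 0.0738 FPKM at most. *Il6st*, the chain that completes the IL-27 receptor, was slightly higher (log2 change 0.14, adjusted p = 0.0369), a call lost in 7 of 14 alternative settings, among them the TPM scale (adjusted p = 0.132), no filter on low values and leaving out any of 4 single libraries.

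Among the kinases and STATs, *Jak2*, which is bound to the IL-12 and IL-23 receptors, went from 10.01 to 4.74 FPKM, a log2 change of -0.94 (SE 0.068, adjusted p = 0.000108). *Stat3*, the main carrier of the IL-10 signal and a carrier of the IL-23 and IL-27 signals, went from 9.94 to 7.40 FPKM (log2 change -0.38, adjusted p = 0.000963). *Jak1*, a partner kinase of several of these receptors, went from 30.6 to 28.03 FPKM (adjusted p = 0.0342), a call lost in 8 of 14 alternative settings. *Tyk2* did not pass the test (log2 change 0.05, adjusted p = 0.503), and *Stat4*, which carries the IL-12 signal in lymphocytes, was listed at 0.

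**Figure D3:**
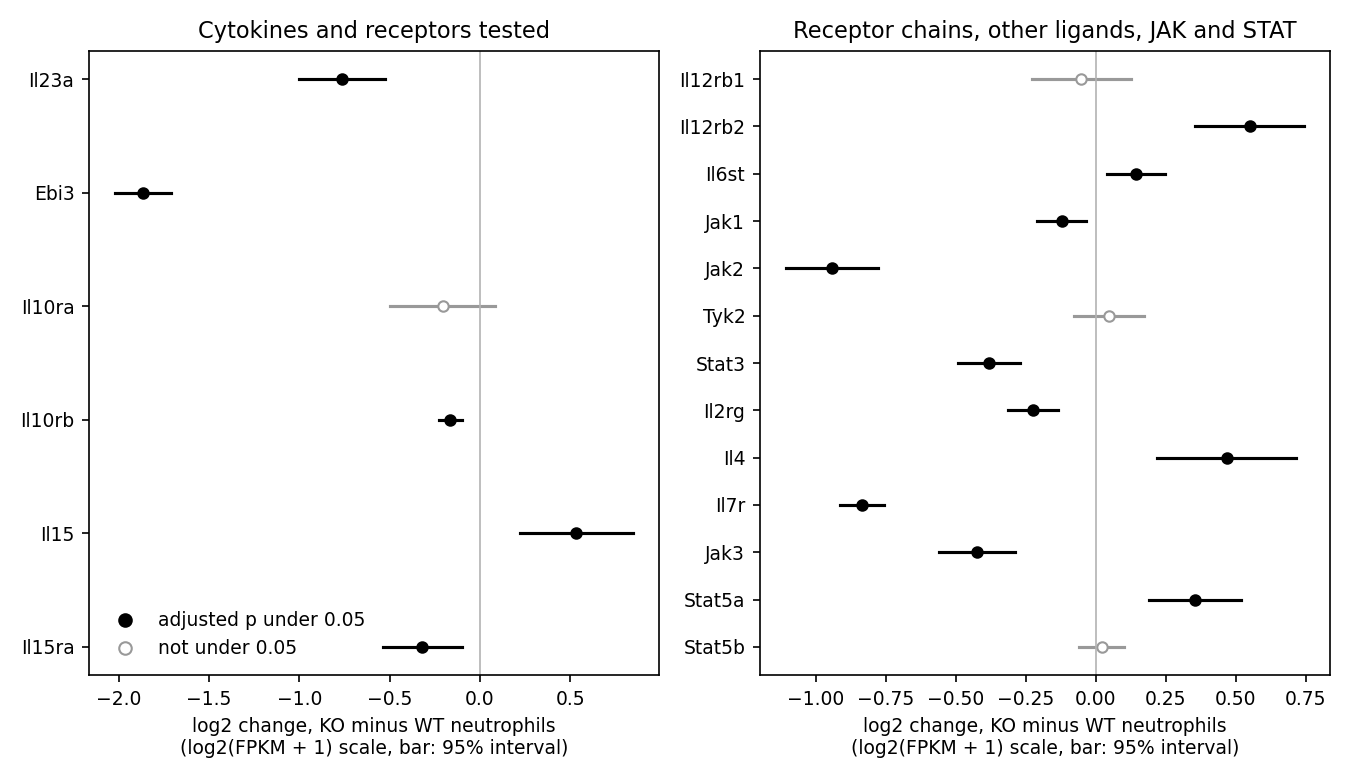
The log2 change with KO relative to WT neutrophils (horizontal axis, log2(FPKM + 1) scale) with its 95% interval, for the 6 tested cytokine and receptor genes (left) and for tested receptor chains, ligands, JAK and STAT genes of the IL-12 and IL-15 lists (right). Filled points have an adjusted p under 0.05, with *Ebi3* at -1.87 and *Jak2* at -0.94 farthest to the left of their panels, and *Il15* at 0.54 and *Il12rb2* at 0.55 farthest to the right.

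*Il10* (ENSMUSG00000016529; chromosome 1, 131019845 to 131024974, plus strand) was listed above 0 in a single library. That library, WT replicate 1, had 0.180 FPKM, about 4.00 fragments, and the others were at 0, where 3 fragments would give at most 0.147 FPKM. No difference between the groups was detectable at this depth (exact permutation test, p = 1). The 11 other ligands and receptors of the IL-10 family listed were all under the limit of 1 FPKM, 7 of them at 0 in every library, and the highest single value was 0.643 FPKM for *Ifnlr1*, a chain of the interferon lambda receptor.

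*Il10ra* (ENSMUSG00000032089; chromosome 9, 45253837 to 45269149, minus strand), the chain that binds IL-10, was at 2.97, 2.11 and 2.24 FPKM in WT co-cultures and 1.66, 2.04 and 2.23 FPKM in KO co-cultures. The groups overlapped. The means were 2.44 ± 0.464 and 1.98 ± 0.293 FPKM (SD, n = 3). The log2 change of -0.21 did not pass the test (95% interval -0.50 to 0.09, adjusted p = 0.215), and this interval leaves room for a fall as large as that of *Il15ra*.

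*Il10rb* (ENSMUSG00000022969; chromosome 16, 91406164 to 91425834, plus strand), the chain that the IL-10 receptor shares with the receptors of IL-22 and interferon lambda, was the second most abundant of the 10 genes with WT and the most abundant with KO neutrophils. Its level was 22.3, 22.5 and 22.8 FPKM in WT co-cultures and 20.3, 19.9 and 19.9 FPKM in KO co-cultures. The libraries within a group were nearly equal, so a small shift was resolved. *Il10rb* fell by 0.16 on the log2 scale (SE 0.027, 95% interval -0.23 to -0.10, adjusted p = 0.00365), from 22.5 ± 0.241 to 20.02 ± 0.258 FPKM (SD, n = 3). The size of this change was at the 48.8 percentile of all genes tested, near the middle. The ratio of *Il10ra* to *Il10rb* was 0.133, 0.0941 and 0.0984 with WT and 0.0816, 0.103 and 0.112 with KO neutrophils, and the groups overlapped (exact permutation test, p = 0.6).

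Genes known to be induced by IL-10 in macrophages, many of which also answer to Toll-like receptor ligands and other cytokines, were mostly lower with KO neutrophils. Of 16 listed, 13 were tested, 10 fell (18.8% of all genes tested did) and 0 rose (24.5% of all), with a median log2 change of -0.76 against 0.02 for all genes tested. This and the other lists were chosen with earlier results of these data known, so their counts are descriptions. *Il1rn*, the antagonist of the IL-1 receptor, was at 31.6, 31.6 and 32.2 FPKM in WT co-cultures and 4.52, 4.37 and 3.80 FPKM in KO co-cultures, a log2 change of -2.65 (adjusted p = 7.02e-07). *Cd14*, the co-receptor for LPS, went from 474 ± 7.001 to 136.3 ± 1.66 FPKM (SD, n = 3; log2 change -1.79, adjusted p = 4.09e-08). *Socs3*, a feedback inhibitor of cytokine receptors, went from 13.7 ± 0.681 to 3.44 ± 0.150 FPKM (SD, n = 3; log2 change -1.73, adjusted p = 2.70e-06). *Zfp36*, which promotes the decay of cytokine mRNA, fell by 1.30 on the log2 scale (adjusted p = 5.36e-06). *Pim1*, a survival kinase, fell by 1.32 (adjusted p = 6.00e-06). The genes that did not pass the test were *Etv3* (log2 change 0.05), *Cdkn2d* (0.01) and *Arid5a* (-0.09), and the sign of *Cdkn2d* and *Arid5a* depended on the setting. These falls were measured in libraries in which *Il10* was at or near 0. Which signal set the level of these genes was not tested.

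*Il15* (ENSMUSG00000031712; chromosome 8, 82331632 to 82403222, minus strand) was the only one of the 10 genes that rose. Its level was 0.985, 1.52 and 1.34 FPKM in WT co-cultures and 2.52, 2.56 and 1.84 FPKM in KO co-cultures. The lowest KO library was above the highest WT library, but the spread within both groups was wide. The means were 1.28 ± 0.272 and 2.31 ± 0.409 FPKM (SD, n = 3), a ratio of 1.80, and the log2 change was 0.54 (SE 0.129, 95% interval 0.22 to 0.85, adjusted p = 0.0172). The call was lost without KO replicate 1 (adjusted p = 0.0562), without KO replicate 2 (0.057) and when low genes were kept in the test (0.0532). *Il15* has 10 annotated transcripts, with coding ones of 430 to 1908 bases, and the number of fragments behind its FPKM depends on which was counted. With the shortest, a library had about 7.17 to 20.7 fragments.

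*Il15ra* (ENSMUSG00000023206; chromosome 2, 11705290 to 11734317, plus strand) moved the other way. Its level was 1.47, 1.20 and 1.27 FPKM in WT co-cultures and 0.822, 1.02 and 0.718 FPKM in KO co-cultures, and the groups did not overlap. The means were 1.31 ± 0.139 and 0.854 ± 0.154 FPKM (SD, n = 3), a ratio of 1.54, and *Il15ra* fell by 0.32 on the log2 scale (SE 0.091, 95% interval -0.54 to -0.10, adjusted p = 0.0307). *Il15ra* has 18 annotated transcripts, with coding ones of 405 to 1936 bases. With the shortest, a library had only about 5.29 to 10.04 fragments. The call of *Il15ra* also rested on single libraries. It was lost without WT replicate 1 (adjusted p = 0.0919), WT replicate 3 (0.0676), KO replicate 1 (0.079) or KO replicate 3 (0.0872), and when low genes were kept in the test (0.0766).

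Within single libraries the receptor and the ligand could be set against each other. The ratio of *Il15ra* to *Il15* was 1.49, 0.787 and 0.949 with WT neutrophils. The transcript lengths behind both FPKM values are not known, so a ratio near 1 does not show that the levels were alike. With KO neutrophils the ratio was 0.326, 0.399 and 0.391, so that the FPKM of *Il15* exceeded that of *Il15ra* in every KO library. The mean ratios were 1.07 ± 0.367 and 0.372 ± 0.0401 (SD, n = 3) and the groups did not overlap, with the smallest exact permutation p that the design allows, 0.1.

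**Figure D4:**
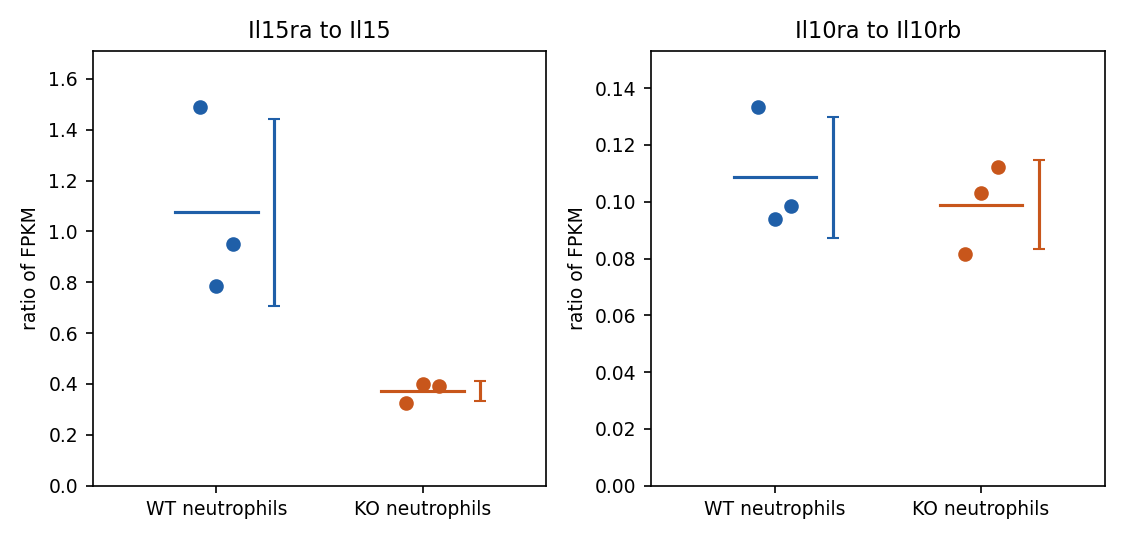
The ratio of FPKM (vertical axis, from 0) of *Il15ra* to *Il15* (left) and of *Il10ra* to *Il10rb* (right) in each library, with points for libraries, lines for the mean of 3 libraries and bars for the SD. The first ratio is 0.787 to 1.49 with WT and 0.326 to 0.399 with KO neutrophils without overlap, while the second overlaps between the groups.

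The chain that IL-15 shares with IL-2, *Il2rb*, was listed at 0 in all libraries, together with *Il2*, *Il9* and *Il21*, so the microglia showed *Il15* and *Il15ra* without the signalling chain specific to IL-2 and IL-15. *Il2rg*, the common gamma chain, was abundant, at 56.9 ± 2.14 FPKM in WT co-cultures and 48.6 ± 1.45 FPKM in KO co-cultures (SD, n = 3), and fell by 0.22 on the log2 scale (adjusted p = 0.00371). Of 15 genes of this list, 7 were tested, with 4 lower (18.8% of all genes tested) and 2 higher (24.5% of all) and a median log2 change of -0.12, against 0.02 for all. *Il7r*, the receptor chain for IL-7, went from 18.9 to 10.1 FPKM (log2 change -0.84, adjusted p = 7.17e-06). *Jak3*, the kinase bound to the gamma chain, went from 3.87 to 2.63 FPKM (log2 change -0.42, adjusted p = 0.00146). *Stat5a*, which carries the IL-15 signal, rose from 1.68 to 2.43 FPKM (log2 change 0.35, adjusted p = 0.00725). *Il4*, a ligand of the gamma chain, rose from 0.698 to 1.35 FPKM (log2 change 0.47, adjusted p = 0.0118). Its mean with WT neutrophils was under 1 FPKM, so it entered the test through its level with KO neutrophils. *Stat5b* did not pass the test, and its sign depended on the scale. Of 16 T, NK and B cell markers, 13 were listed at 0 in every library, among them *Cd3e*, *Ncr1* and *Ifng*, and the highest single value was 0.0876 FPKM.

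The order of levels differed between the groups. With WT neutrophils it ran from *Ebi3* (33.7 FPKM) through *Il10rb*, *Il10ra* and *Il23a* to *Il15ra* and *Il15*, which did not differ beyond their spread, and then *Il12b*. With KO neutrophils it ran from *Il10rb* (20.02 FPKM) through *Ebi3* to *Il15* and *Il10ra*, whose ranges overlapped, and to *Il15ra* and *Il23a*, whose ranges also overlapped. In both groups *Il27*, *Il10* and *Il12a* were at or near 0 and could not be ranked, and with KO neutrophils *Il12b*, at 0, joined them.

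Transcription regulators of cytokine genes in myeloid cells were read from a list of 19 genes. Of these, 17 were tested, 8 fell (18.8% of all genes tested) and 3 rose (24.5% of all), with a median log2 change of -0.13 against 0.02 for all. *Nfkbiz*, a nuclear partner of NF-kappaB that *Il12b* is known to require in macrophages, was at 41.0, 41.3 and 41.4 FPKM in WT co-cultures and 4.24, 4.37 and 3.77 FPKM in KO co-cultures. It fell by 3.04 on the log2 scale (SE 0.050, adjusted p = 2.47e-07), the largest change in the list. *Nfkb2* and *Nfkb1*, which encode NF-kappaB subunits, went from 34.8 to 14.1 FPKM (log2 change -1.25, adjusted p = 8.52e-07) and from 18.7 to 7.33 FPKM (log2 change -1.24, adjusted p = 4.63e-06). *Cebpb*, a factor of inflammatory macrophage genes, went from 140 to 86.0 FPKM (log2 change -0.70, adjusted p = 2.51e-05). The interferon regulatory factors *Irf1*, *Irf3*, *Irf5* and *Irf8* did not pass the test, and the libraries of *Irf8* spread from 4.18 to 8.46 FPKM with WT neutrophils alone.

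**Figure D5:**
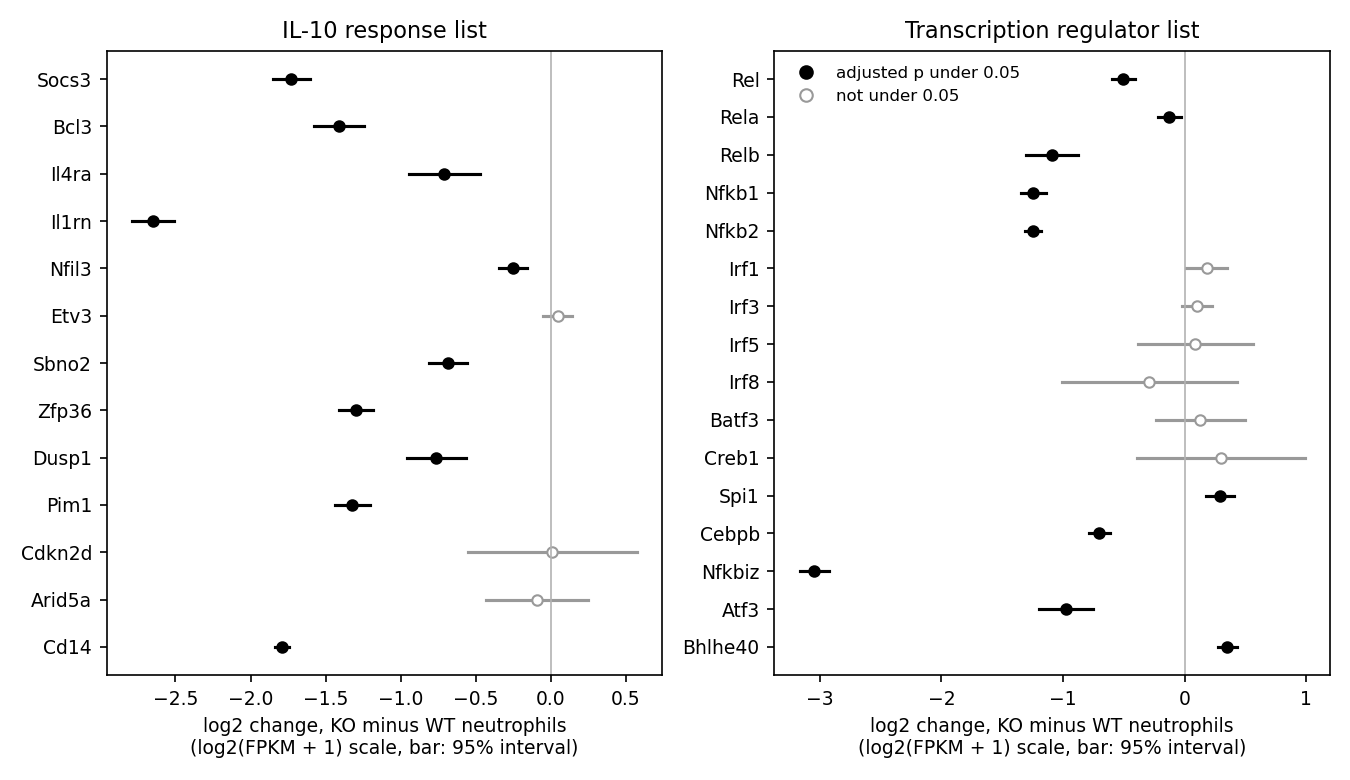
The log2 change with KO relative to WT neutrophils (horizontal axis, log2(FPKM + 1) scale) with its 95% interval, for the tested genes of the IL-10 response list (left) and tested genes of the transcription regulator list (right). On the left 10 of 13 genes have filled points (adjusted p under 0.05), all below 0, and on the right *Nfkbiz* at -3.04 lies farthest to the left.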

How the data were processed

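RNA-seq was deposited for 6 libraries of sorted microglia, 3 per neutrophil genotype, whose groups and replicate numbers are in their titles. The file is a table of FPKM as the authors computed them, for 55335 gene identifiers and with 1 column per library. The submitters' processing notes name fastp 0.17.1, HISAT2 2.1.0, DESeq2 1.18.1 and R 3.4.3, whereas the quantification program, genome build and annotation are not given in the sources used here. Library kit and sequencer differ between the labels and the published methods and are not settled. Symbols and positions came from GENCODE M21 (GRCm38), in which 55154 identifiers were found and 181 were not.

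The study's own test was DESeq2 on counts, which FPKM does not allow. Depth was read from the value of 1 fragment, 0.0520 to 0.0642 FPKM for 1 kb. Only 17.7% to 18.4% of low values were whole fragments within 0.05, against 10% by chance, so no count test was run. The level of 3 fragments used the shortest coding transcript and covers counting error only.

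Differences were tested with limma 3.58.1 in R 4.3.3 (lmFit and eBayes with trend) on log2(FPKM + 1), KO minus WT, for genes averaging 1 FPKM or more, with Benjamini-Hochberg adjustment over all 11395 and a threshold of 0.05. The script was tested on simulated data. Single values had an exact two-sided permutation test. Alternatives were a pseudocount of 0.1, no filter, a mean of at least 5 FPKM, a common sum (TPM scale), median centring, no variance trend, array weights, a replicate block and leaving out each library. The 10 genes, Cd177 and direct receptor partners were always named. In each pathway list the 5 called genes with the smallest p were named, in each marker list the 4 most abundant genes and those at 0, and for each called gene with an absolute log2 change over 1 the 3 nearest in pattern. Other genes named (unpassed tests, overlapping genes, single markers) were chosen after their values were seen. The 10 genes and the lists were chosen with earlier results of these data known, and the ubiquitous list was added last. Glia and neuron markers (12 genes) summed to 0.745 to 0.933 FPKM with WT and 0.859 to 1.01 FPKM with KO neutrophils. A few genes of the lists enter the counts and are not reported here by name.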

Additional observations from a re-analysis of the deposited data

How the results depend on the processing

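Of 225 values recomputed under the alternatives, 211 were counted as the same and 0 as reversed. For a log2 change, the same means the same direction and the same side of the threshold. For a difference of means or a ratio it means a move of less than the spread. Many of the values are numbers of called genes, which counted as the same when of similar size. Such numbers and the ratios could not reverse. *Ebi3*, *Il23a* and *Il10rb* kept their calls wherever they were tested, with adjusted p of 3.14e-06 to 0.000165, 0.00114 to 0.00596 and 0.00135 to 0.0226. *Il15* and *Il15ra* did not. Without a filter on low values, where 25195 genes share the adjustment, the changes were still 0.54 and -0.32 but the adjusted p was 0.0532 and 0.0766. Leaving out 1 library gave log2 changes of 0.44 to 0.64 for *Il15* and -0.38 to -0.27 for *Il15ra*, and 3 (without KO replicate 1) to 5 of the 10 genes called. With a mean of at least 5 FPKM, which tests fewer genes, 2 of the 10 genes and 3 genes of the gamma chain list were called. With a pseudocount of 0.1 and on the TPM scale, 2 of the 10 genes passed the study's threshold, *Ebi3* and *Il23a*. Over all genes the number called ranged from 3763 to 4931.

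With a replicate block, 4212 genes were called, 4026 of them among the 4930 called without it, and *Il15ra* (log2 change -0.32) lost its call with an adjusted p of 0.071. Whether the replicate numbers pair the libraries is not known. The deviations of same-numbered libraries correlated at -0.0751, -0.0524 and -0.00518, which cannot decide it, since a shared origin need not leave a common deviation. Depth limits *Il12a*, *Il27* and *Il10*, whose values lay at or near the level of 3 fragments.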
